A study of Homo sapiens with 18 samples.

Results

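The genes described here encode the nuclear subunits of the oxidative phosphorylation system in human embryonic stem cells that were edited at ZNF263, a zinc finger transcription factor. They were taken from the count tables by symbol: names that begin with NDUFA, NDUFB, NDUFC, NDUFS or NDUFV and a digit, SDHA to SDHD, names that begin with UQCR, COX4 to COX8 or ATP5, and CYC1 and CYCS. This gave 90 of 27130 symbols, after 3 antisense symbols (NDUFA6-AS1, NDUFB2-AS1 and NDUFV2-AS1) and 2 pseudogenes (ATP5EP2 and UQCRBP1) were left out. By complex they were 37 genes of complex I, 4 of complex II, 10 of complex III, 19 of complex IV, 19 of complex V and the single gene of cytochrome c. Of the 90 genes, 76 encode subunits in general use, 7 are isoforms known from other tissues or from low oxygen, 3 are related genes that carry the family name, 2 are near copies and 2 are read-through transcripts.

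RNA was sequenced from the established embryonic stem cell lines H1 (WA01) and H9 (WA09) and from clones derived from them in which Cas9 was used to delete ZNF263. The question posed is what this factor does in the control of pluripotency. The replicated groups held 3 libraries each of the homozygous H1 clone 1-10, H1 wild type, the homozygous H9 clones 9-1 and 9-D, and H9 wild type. A further 3 libraries stood alone: the homozygous H1 clone 1-10, the heterozygous H1 clone 1-5 and H1 wild type, with 1 library each. Each knockout is 1 clone, so a property of the clone cannot be told apart from the loss of ZNF263. The labels state neither the edited part of the gene nor whether replicates were separate cultures, so p-values measure the spread between these libraries, which may be technical. In these bulk samples, fewer cells of a type and less RNA per cell cannot be told apart.

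Oxidative phosphorylation takes place in the inner mitochondrial membrane. Complexes I and II pass electrons from NADH and succinate to ubiquinone, complex III passes them on to cytochrome c, and complex IV hands them to oxygen, while complexes I, III and IV pump protons that drive ATP synthesis by complex V. Most subunits are encoded in the nucleus, made in the cytosol and imported, and they are assembled with a few subunits encoded by mitochondrial DNA. Primed embryonic stem cells rely strongly on glycolysis and carry a respiratory chain that works at the same time.

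Libraries held 9.66 to 21 M counts. Levels are counts scaled to a common library total after TMM scaling (CPM). Chi-square per gene ran from 1.83 to 5.94 over the 15 pairs of replicates, so no pair looked like the same library deposited again. ZNF263 RNA was lower in the clones and far from absent. It stood at 32.2, 33.3 and 36.1 CPM in clone 1-10, against 40.4, 42.0 and 39.6 CPM in H1 wild type. It stood at 37.3, 36.2 and 34.4 CPM in clone 9-1 and at 35.3, 35.3 and 37.8 CPM in clone 9-D, against 39.9, 44.3 and 42.7 CPM in H9 wild type. No clone library overlapped its wild type, and the log2 fold changes were -0.27, -0.23 and -0.23 (edgeR quasi-likelihood test with Benjamini-Hochberg adjustment, adjusted p = 0.0156, 0.0157 and 0.0204 for 1-10, 9-1 and 9-D). The call was lost without wild-type replicate 2 in each line (adjusted p = 0.0545 in clone 1-10, 0.0647 in 9-1 and 0.0827 in 9-D), and also without clone 1-10 replicate 1, 9-1 replicate 3, 9-D replicates 1 and 2, and, for 9-D, H9 wild-type replicate 3. The summed level of 8 pluripotent cell markers was 8676 to 9038 CPM in clone 1-10 and 7797 to 8290 CPM in H1 wild type, and 7819 to 8037 CPM in 9-1 and 7912 to 8059 CPM in 9-D, against 6682 to 6837 CPM in H9 wild type. The sum of 6 neuroectoderm markers was 7.97 to 10.9 CPM in clone 1-10 against 25.3 to 33.8 CPM in H1 wild type, and none of those markers was at 0 in all libraries of either group. In H9 it was 1.67 to 3.69 CPM in 9-1 and 2.21 to 3.19 CPM in 9-D, against 4.15 to 6.11 CPM in wild type. The 8 cardiac and skeletal muscle markers, of which 1 to 3 were at 0 in all libraries of a group, summed to 76.3 to 82.2 CPM in clone 1-10 against 70.0 to 76.1 CPM in H1 wild type. In H9 they summed to 223 to 231 CPM in 9-1 and 203 to 228 CPM in 9-D, against 115 to 131 CPM in wild type. The 6 markers of primitive streak and mesendoderm summed to 4.70 to 9.65 CPM in clone 1-10 against 19.6 to 20.5 CPM in H1 wild type, and to 3.72 to 20.9 CPM in 9-1 and 5.22 to 11.9 CPM in 9-D against 5.67 to 9.62 CPM in H9 wild type. The 8 fibroblast and feeder markers summed to 579 to 698 CPM in clone 1-10 against 629 to 662 CPM in H1 wild type, and to 764 to 834 CPM in 9-1 and 857 to 937 CPM in 9-D against 859 to 900.1 CPM in H9 wild type. For 4 markers of definitive endoderm the clone sums overlapped wild type in both lines. The part of these differences in the results below was not tested.

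In H1 clone 1-10, 13 of the 80 genes that passed the filter on low counts were higher than in wild type and 0 were lower (edgeR, adjusted p under 0.05). Over all 14897 genes tested, 5.01% were called higher and 7.25% lower. At an unadjusted p under 0.05, edgeR had 32 of the 80 higher and 1 lower, where 12.3% of all genes were higher and 13.8% lower. DESeq2 called 10 of the 80 higher and 0 lower at an adjusted p under 0.05, where 4.14% of 13453 genes were called higher and 5.32% lower. The median log2 fold change of the 80 genes was 0.11, against 0.00 over all genes, and 68 of the 80 lay above 0. In H9 clone 9-1, 6 of 81 genes were higher and 3 lower, where 12.8% of 15411 genes were called higher and 13.5% lower, so the shares of these genes called were below the background in both directions. The median in 9-1 was -0.00, and 39 of 81 genes lay above 0. In H9 clone 9-D, 19 of 81 genes were higher and 1 was lower, where 11.5% of all genes were called higher and 12.0% lower. The median in 9-D was 0.10, against -0.01 over all genes, and 66 of 81 genes lay above 0. Clones 9-1 and 9-D were set against the same 3 wild-type libraries, so their values are not independent. Without H1 wild-type replicate 3 the count of 13 came to 3, without H1 wild-type replicate 1 to 6 and without clone 1-10 replicate 3 to 7. Higher calls over all tested genes came from 747 to 284, 508 and 493 in these fits. The 9-D count of 19 came to 7 without H9 wild-type replicate 1 and to 11 without H9 wild-type replicate 3 or 9-D replicate 3. Higher calls over all tested genes came from 1770 to 1369, 1473 and 1746 there. For 9-1, the count of higher genes came to 3 without H9 wild-type replicate 3, and that of lower genes to 5 without H9 wild-type replicate 1 or 3 or 9-D replicate 1 and to 1 without H9 wild-type replicate 2. Higher calls over all tested genes came from 1965 to 1613 in the first of these fits. Lower calls came from 2088 to 1761, 1774, 2146 and 1883 in the other order given. Scaling by total counts gave 4 higher and 1 lower in clone 1-10, 5 higher and 6 lower in 9-1, and 6 higher and 2 lower in 9-D. Upper-quartile scaling gave 5 higher and 1 lower in clone 1-10 and 5 higher and 6 lower in 9-1. Calls over all tested genes moved as well. With total counts, 436 were higher and 1381 lower in clone 1-10, 1449 and 2565 in 9-1, and 1214 and 2515 in 9-D. With the upper quartile, 478 were higher and 1332 lower in clone 1-10, and 1636 and 2374 in 9-1. TMM scaling gave 747 and 1080, 1965 and 2088, and 1770 and 1849 in 1-10, 9-1 and 9-D.

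**Figure D1:**
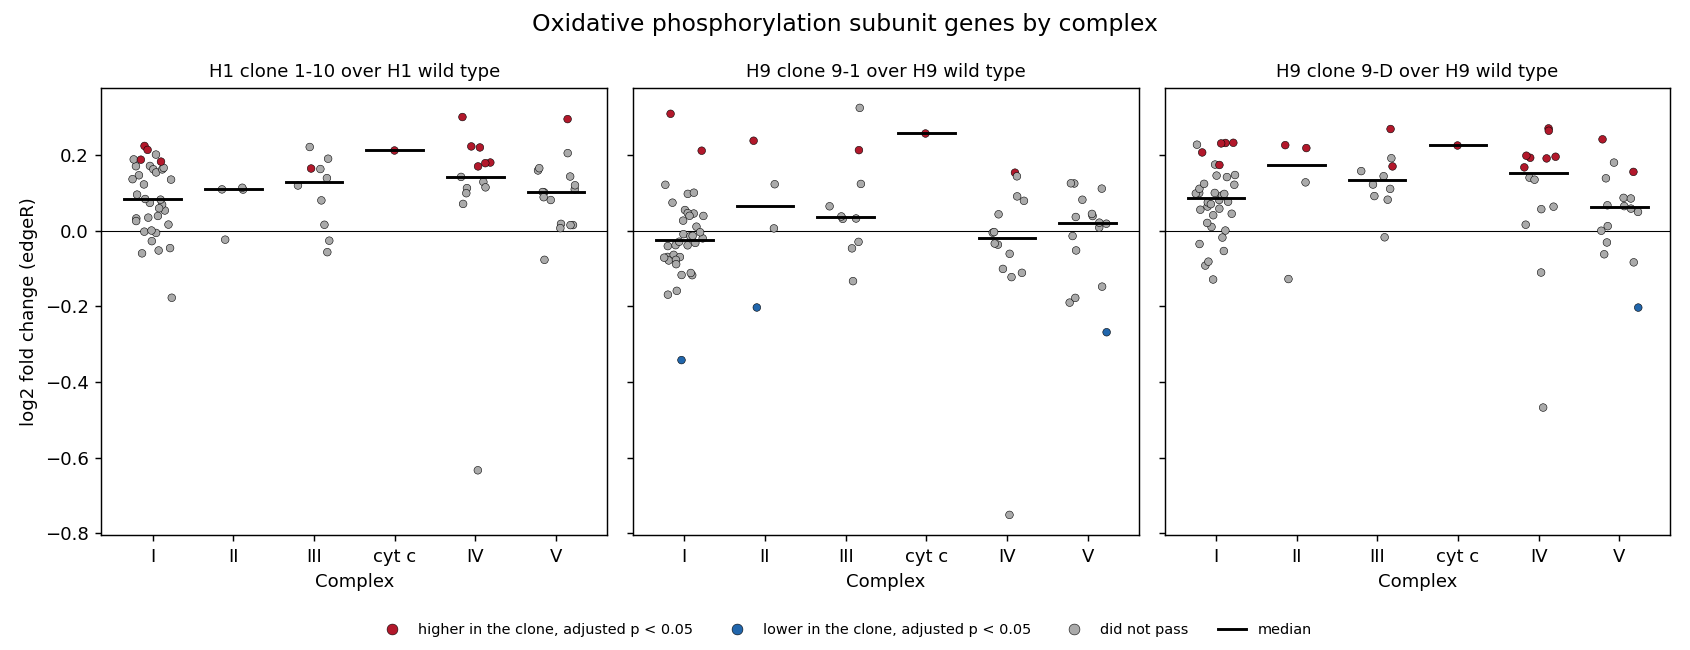
Log2 fold change of each tested gene against the wild type of its line, one column per complex and one panel per clone (1-10, 9-1 and 9-D), with the median of each complex as a bar and called genes in red (higher) or blue (lower). Complex IV genes centre on 0.14 in clone 1-10 and 0.15 in 9-D, and on -0.02 in 9-1.

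These are small differences, and they were read library by library. The median deviation of the tested genes from their mean level in the line was 0.01, 0.08 and 0.07 on the log2 scale in the 3 clone 1-10 libraries, against -0.05, -0.01 and -0.08 in H1 wild type. In H1 the groups did not overlap. It was 0.03, -0.10 and -0.01 in the 9-1 libraries and 0.01, 0.09 and 0.10 in the 9-D libraries, against -0.09, 0.04 and -0.03 in H9 wild type. In H9 both clones overlapped wild type, and 9-1 replicate 2, the library with the most counts, was the lowest of the 9. The transcripts are short, with a median length of 716 nt in the GENCODE annotation (each gene at the median of its protein-coding transcripts). Among the other tested genes under 1000 nt, the median log2 fold change was 0.03 in clone 1-10, 0.00 in 9-1 and 0.02 in 9-D, and 6.69%, 12.6% and 13.9% were called higher.

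**Figure D2:**
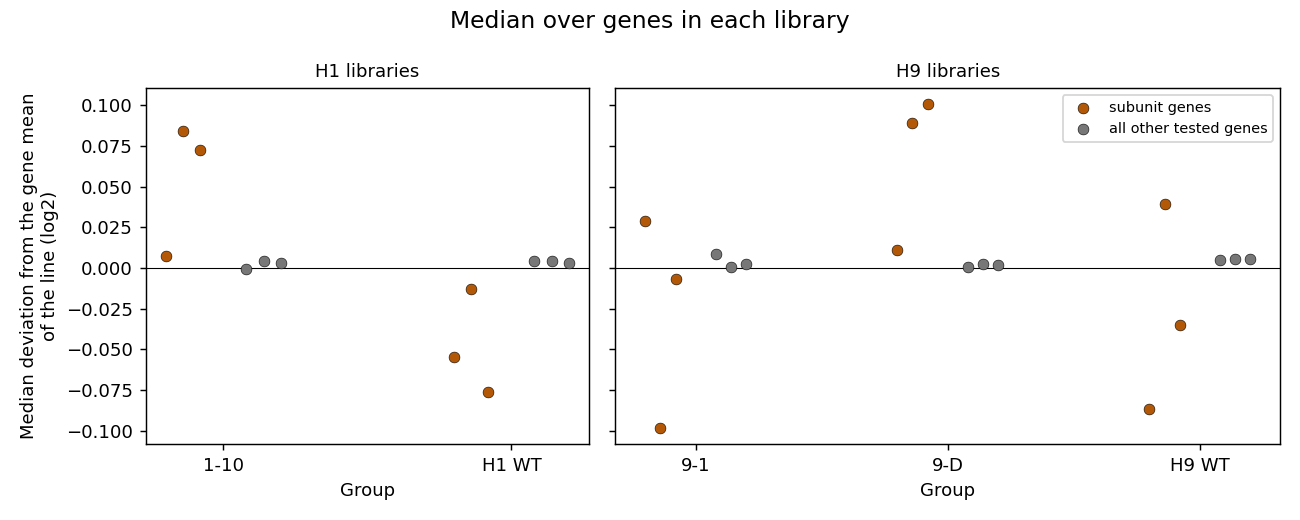
Median deviation of the tested oxidative phosphorylation genes from their mean in the line (log2), 1 orange point per library, with all other tested genes in grey and clones left of wild type within each line. The 3 clone 1-10 libraries lie above the 3 H1 wild-type libraries, while the H9 groups overlap.

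Cytochrome c, the small carrier that moves electrons between complexes III and IV and that also acts in apoptosis when it leaves the mitochondrion, was the only one of the 90 genes called higher in each of the 3 homozygous clones. CYCS stood at 329.8, 309 and 334 CPM in clone 1-10, against 288, 274 and 275 CPM in H1 wild type. It stood at 308, 297 and 293 CPM in 9-1 and at 309, 298 and 272 CPM in 9-D, against 244, 259 and 247 CPM in H9 wild type. Every clone library lay above every wild-type library of its line. The means were 324 ± 13.2 CPM in clone 1-10 and 279 ± 7.82 CPM in H1 wild type, and 299 ± 7.66 CPM in 9-1 and 293 ± 19.2 CPM in 9-D against 250.2 ± 8.0 CPM in H9 wild type (SD, n = 3 each). The log2 fold changes were 0.21 (SE 0.049, adjusted p = 0.00327) in clone 1-10, 0.26 (SE 0.057, adjusted p = 0.000685) in 9-1 and 0.23 (SE 0.057, adjusted p = 0.00281) in 9-D by the edgeR test. Each call was kept in every one of the 13 alternative settings run for H1 and the 18 run for each H9 clone. The single libraries held 297 CPM in clone 1-10 and 289 CPM in clone 1-5, against 262 CPM in wild type. Reads of CYCS and of its processed copies, such as CYCSP52, can be shared, and the way such reads were counted is not given in the sources used here.

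The CYCS promoter is shown because this gene rose in each homozygous clone. The RefSeq sequence (GRCh38.p14, chr7:25125211-25125510, minus strand of the chromosome, given 5′ to 3′ along the gene) runs from 250 bases before the annotated transcription start to 50 bases after it. Capitals mark the matches to the 5 motifs searched, here CCAAT at -127 and its reverse complement at -140 from the start.
CYCS: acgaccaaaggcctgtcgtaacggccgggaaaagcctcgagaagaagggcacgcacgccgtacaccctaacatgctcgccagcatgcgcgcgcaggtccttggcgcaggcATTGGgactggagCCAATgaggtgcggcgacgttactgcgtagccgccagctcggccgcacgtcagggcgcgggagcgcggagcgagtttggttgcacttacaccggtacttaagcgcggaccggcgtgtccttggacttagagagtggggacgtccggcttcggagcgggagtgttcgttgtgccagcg
The searched letters were GCGCATGCG for NRF1, CCGGAAG for ETS factors, AAGATGGC for YY1, CCAAT for the CCAAT box and GGAGGAGG for the repeat known from ZNF263 binding, each on both strands. NRF1 and the ETS factor GABP are known regulators of respiratory chain genes. Over the 70 promoters found for these genes, 14.3% held the NRF1 letters, against 2.1% of all 27305 promoters and 3.42% of the 12041 promoters of tested genes. The ETS letters stood in 27.1%, against 10.7% of all and 17.8% of tested promoters, and the YY1 letters in 15.7%, against 3.03% and 4.96%. CCAAT stood in 35.7% of these promoters and in 35.7% of all promoters. The ZNF263 repeat stood in 3 of the 70 (4.29%: ATP5J, COX6B1 and the read-through NDUFC2-KCTD14), against 10.4% of all and 13.5% of tested promoters. These shares describe letters in a fixed window and not occupied sites.

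Complex I oxidises NADH and is built of core subunits conserved from bacteria, of which 7 are nuclear, and of accessory subunits. In clone 1-10, 4 of its 36 tested genes were higher (11.1%) and 0 lower, with a median log2 fold change of 0.08. Over all tested genes, 5.01% were higher and 7.25% lower there. The higher ones were NDUFV2, an iron-sulfur core subunit (0.19, edgeR adjusted p = 0.0334), and the accessory subunits NDUFB9 (0.22, adjusted p = 0.0224), NDUFS5 (0.18, adjusted p = 0.0236) and NDUFS6 (0.21, adjusted p = 0.0364). NDUFB9 lost its call without H1 wild-type replicate 1 (adjusted p = 0.0758) or 3 (0.213) or clone 1-10 replicate 3 (0.0692). Leaving out the same libraries ended the NDUFS5 call (adjusted p from 0.0882 to 0.144), and these or clone 1-10 replicate 2 ended that of NDUFS6 (0.0646 to 0.322). NDUFV2 was lost without H1 wild-type replicate 2 or 3 or clone 1-10 replicate 1 or 3 (adjusted p from 0.0829 to 0.185). In 9-1, 2 genes were higher and 1 lower (median -0.02), and in 9-D, 5 were higher (median 0.09). These were 5.56% higher and 2.78% lower in 9-1 and 13.9% higher in 9-D. Over all tested genes, 12.8% were higher and 13.5% lower in 9-1, and 11.5% and 12.0% in 9-D. The accessory subunit NDUFA5 was higher in 9-1 by 0.31 (SE 0.076, edgeR adjusted p = 0.00203) and in 9-D by 0.21 (adjusted p = 0.0439), although the 9-D call was lost without H9 wild-type replicate 1 or 3, 9-1 replicate 2 or 9-D replicate 1 or 2 (adjusted p from 0.0509 to 0.183). NDUFA5 stood at 62.5, 55.9 and 52.0 CPM in 9-1 and 55.8, 54.2 and 48.6 CPM in 9-D, against 43.5, 49.7 and 44.3 CPM in H9 wild type. The 9-1 libraries lay above wild type and 9-D replicate 3 lay within it. NDUFB1, a membrane arm subunit, was lower in 9-1 (-0.34, SE 0.11, edgeR adjusted p = 0.0169), at 16.2, 12.9 and 16.9 CPM against 19.1, 21.3 and 17.5 CPM in wild type. That call was lost without 9-1 replicate 2 (adjusted p = 0.188) or H9 wild-type replicate 2 (0.0979). In 9-D, NDUFB11 (0.23, adjusted p = 0.00963), NDUFV3 (0.23, adjusted p = 0.0438) and NDUFB10 (0.17, adjusted p = 0.0453) were also higher by the edgeR test. All of these lost their call without H9 wild-type replicate 1 (adjusted p = 0.064, 0.13 and 0.101). NDUFV3 was also lost without H9 wild-type replicate 2 or 3 or 9-D replicate 2 or 3 (adjusted p from 0.058 to 0.131), and NDUFB10 without H9 wild-type replicate 2 or 3 or 9-D replicate 1 or 3 (0.0532 to 0.138). NDUFS1, the large iron-sulfur core subunit, had log2 fold changes of -0.01, 0.05 and 0.06 in 1-10, 9-1 and 9-D, and none passed the test.

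NDUFV1, the core subunit that binds NADH and flavin, was higher in both H9 clones and not called in H1. It stood at 118, 109 and 119 CPM in 9-1 and 113, 119 and 119 CPM in 9-D, against 100.1, 103 and 95.8 CPM in H9 wild type. All H9 clone libraries lay above all wild-type libraries, and the log2 fold changes were 0.21 (SE 0.060, edgeR adjusted p = 0.0071) in 9-1 and 0.23 (SE 0.059, adjusted p = 0.00348) in 9-D. The 9-1 call was lost without H9 wild-type replicate 3 (adjusted p = 0.0587) or 9-1 replicate 3 (0.0506). In H1, NDUFV1 stood at 80.3, 95.9 and 82.5 CPM in clone 1-10 against 89.4, 88.6 and 89.9 CPM in wild type, groups that overlapped (log2 fold change -0.05, edgeR adjusted p = 0.704).

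Complex II is the succinate dehydrogenase of the citric acid cycle. None of its 4 genes was called in clone 1-10 (median 0.11), where 12.3% of all tested genes were called. By edgeR 0 of 4 had an unadjusted p under 0.05 there. SDHD, a membrane anchor, was higher in 9-1 (0.24, SE 0.066, edgeR adjusted p = 0.00633) and in 9-D (0.23, adjusted p = 0.0105), at 81.2, 77.6 and 76.6 CPM in 9-1 and 80.9, 77.1 and 75.4 CPM in 9-D, against 63.1, 73.3 and 63.3 CPM in wild type. The H9 groups did not overlap, and each call was lost without H9 wild-type replicate 1 or 3 (adjusted p from 0.0561 to 0.0778). The iron-sulfur subunit SDHB was higher in 9-D alone (0.22, edgeR adjusted p = 0.0261), at 44.0, 47.7 and 49.3 CPM against 38.6, 43.2 and 39.5 CPM in wild type. Leaving out H9 wild-type replicate 1 or 3 or 9-D replicate 2 or 3 ended that call (adjusted p from 0.0627 to 0.125). SDHA, the flavoprotein that oxidises succinate, went the other way in 9-1: 95.9, 98.7 and 97.9 CPM in 9-1 against 109.7, 118 and 109 CPM in wild type (log2 fold change -0.20, SE 0.060, edgeR adjusted p = 0.00996). Its call was lost without H9 wild-type replicate 2 (adjusted p = 0.0507) or 9-1 replicate 1 (0.0505). In 9-D, SDHA stood at 99.5, 101 and 108 CPM, below each wild-type library, and the difference did not pass the test (-0.13, edgeR adjusted p = 0.121). SDHA can share reads with its pseudogenes SDHAP1, SDHAP2 and SDHAP3.

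In complex III, which oxidises ubiquinol, CYC1 (cytochrome c1, the subunit that hands electrons to cytochrome c) was higher in both H9 clones. CYC1 stood at 177, 168 and 179.6 CPM in 9-1 and 175, 179.8 and 189.5 CPM in 9-D, against 153, 150.2 and 149 CPM in H9 wild type. Every H9 clone library lay above every wild-type library, by 0.21 in 9-1 (SE 0.057, edgeR adjusted p = 0.00443) and 0.27 in 9-D (SE 0.057, adjusted p = 0.000438) on the log2 scale, and both calls were kept in all 18 alternatives. In H1 the groups overlapped, at 133, 153 and 131 CPM in clone 1-10 against 142, 151 and 141 CPM in wild type (-0.06, edgeR adjusted p = 0.596). UQCRC1, a core subunit, was higher in clone 1-10 (0.16, SE 0.051, edgeR adjusted p = 0.0301), a call lost without H1 wild-type replicate 1 or 3 or clone 1-10 replicate 1 or 2 (adjusted p from 0.0546 to 0.134). UQCRFS1, the Rieske iron-sulfur protein, was higher in 9-D (0.17, edgeR adjusted p = 0.0374), a call lost without H9 wild-type replicate 1 or 3 or 9-D replicate 2 or 3 (adjusted p from 0.073 to 0.183). The hinge subunit UQCRH and its near-identical copy UQCRHL, which can share reads, passed in no clone.

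Complex IV, cytochrome c oxidase, held the most called genes in 2 of the 3 clones: 6 of 13 tested were higher in clone 1-10 (median 0.14), and 7 of 14 were higher in 9-D (median 0.15). In 9-1, 1 of 14 was higher (median -0.02). The shares higher were 46.2% in clone 1-10, 7.14% in 9-1 and 50.0% in 9-D, against 5.01%, 12.8% and 11.5% of all tested genes. No complex IV gene was called lower in any clone. COX7B, a small subunit, stood at 46.5, 49.7 and 48.4 CPM in clone 1-10, against 39.6, 37.7 and 40.2 CPM in H1 wild type. It stood at 44.1, 40.8 and 40.5 CPM in 9-1 and 41.3, 46.9 and 48.6 CPM in 9-D, against 35.6, 40.4 and 37.4 CPM in H9 wild type. Clone libraries lay above wild type in both lines, those of 9-1 by the least. COX7B was higher in clone 1-10 by 0.30 (SE 0.071, edgeR adjusted p = 0.0044), kept in all 13 alternatives, and in 9-D by 0.27 (adjusted p = 0.0078), lost without H9 wild-type replicate 1 (adjusted p = 0.0598).

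COX7C, COX7A2 and NDUFA4 were the other complex IV genes higher in both 1-10 and 9-D. COX7C stood at 243, 256 and 249 CPM in clone 1-10 against 219, 229 and 212 CPM in H1 wild type, and at 244, 211 and 238 CPM in 9-1 and 253, 273 and 255 CPM in 9-D against 213, 214 and 223 CPM in H9 wild type. Clone 1-10 and 9-D lay apart from wild type, while 9-1 replicate 2 was below it. The log2 fold changes of COX7C were 0.18 in clone 1-10 (edgeR adjusted p = 0.0176; lost without H1 wild-type replicate 1, 0.0585, or 3, 0.141) and 0.26 in 9-D (SE 0.059, adjusted p = 0.000843; kept in all 18 alternatives). COX7A2, the common form of subunit 7A, stood at 79.8, 82.1 and 81.1 CPM in clone 1-10, against 70.3, 72.1 and 66.0 CPM in H1 wild type. In H9 it stood at 72.7, 76.5 and 74.5 CPM in 9-1 and 82.4, 92.2 and 88.6 CPM in 9-D, against 70.3, 80.8 and 78.1 CPM in wild type. The 9-1 values lay inside the wild-type range and the 9-D values above it. The calls for COX7A2 were 0.22 in clone 1-10 (edgeR adjusted p = 0.015, lost without H1 wild-type replicate 3, 0.134) and 0.20 in 9-D (adjusted p = 0.0227, lost without H9 wild-type replicate 1, 0.181, or 9-D replicate 2, 0.1). NDUFA4, named for complex I and later assigned to complex IV, was higher by 0.17 in clone 1-10 (edgeR adjusted p = 0.0439) and 0.20 in 9-D (adjusted p = 0.0133). Its clone 1-10 call was lost in 4 of 6 fits that left out a library, those without H1 wild-type replicate 1 or 3 or clone 1-10 replicate 2 or 3 (adjusted p from 0.0716 to 0.248).

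The further complex IV genes were called in 1 line only. In clone 1-10 these were COX6A1 (0.18, edgeR adjusted p = 0.0412) and COX6C (0.22, adjusted p = 0.0433). COX6A1 was lost without H1 wild-type replicate 1 or 3 or clone 1-10 replicate 2 or 3 (adjusted p from 0.067 to 0.175), and COX6C without H1 wild-type replicate 2 or 3 or clone 1-10 replicate 3 (0.13 to 0.231). In 9-D they were COX5B (0.19, edgeR adjusted p = 0.0337) and COX4I1, the common form of subunit 4 (0.17, adjusted p = 0.0447). Both were lost without H9 wild-type replicate 1 (adjusted p = 0.13 and 0.26) or 3 (0.197 and 0.0714) or 9-D replicate 3 (0.0652 and 0.246), and COX5B also without 9-D replicate 2 (0.0921). COX5A was higher in 9-1 (0.15, edgeR adjusted p = 0.0469) and 9-D (0.19, adjusted p = 0.0136). The 9-1 call was lost in 7 of the 9 fits that left out a library, all but those without 9-D replicate 1 or 3 (adjusted p up to 0.165), and the 9-D call without H9 wild-type replicate 2 (0.0599). The common forms COX6B1 and COX8A and the supercomplex factor COX7A2L were not called in any clone, with log2 fold changes of 0.10, 0.11 and 0.07 in clone 1-10, -0.04, -0.06 and -0.00 in 9-1, and 0.14, 0.06 and 0.02 in 9-D.

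**Figure D3:**
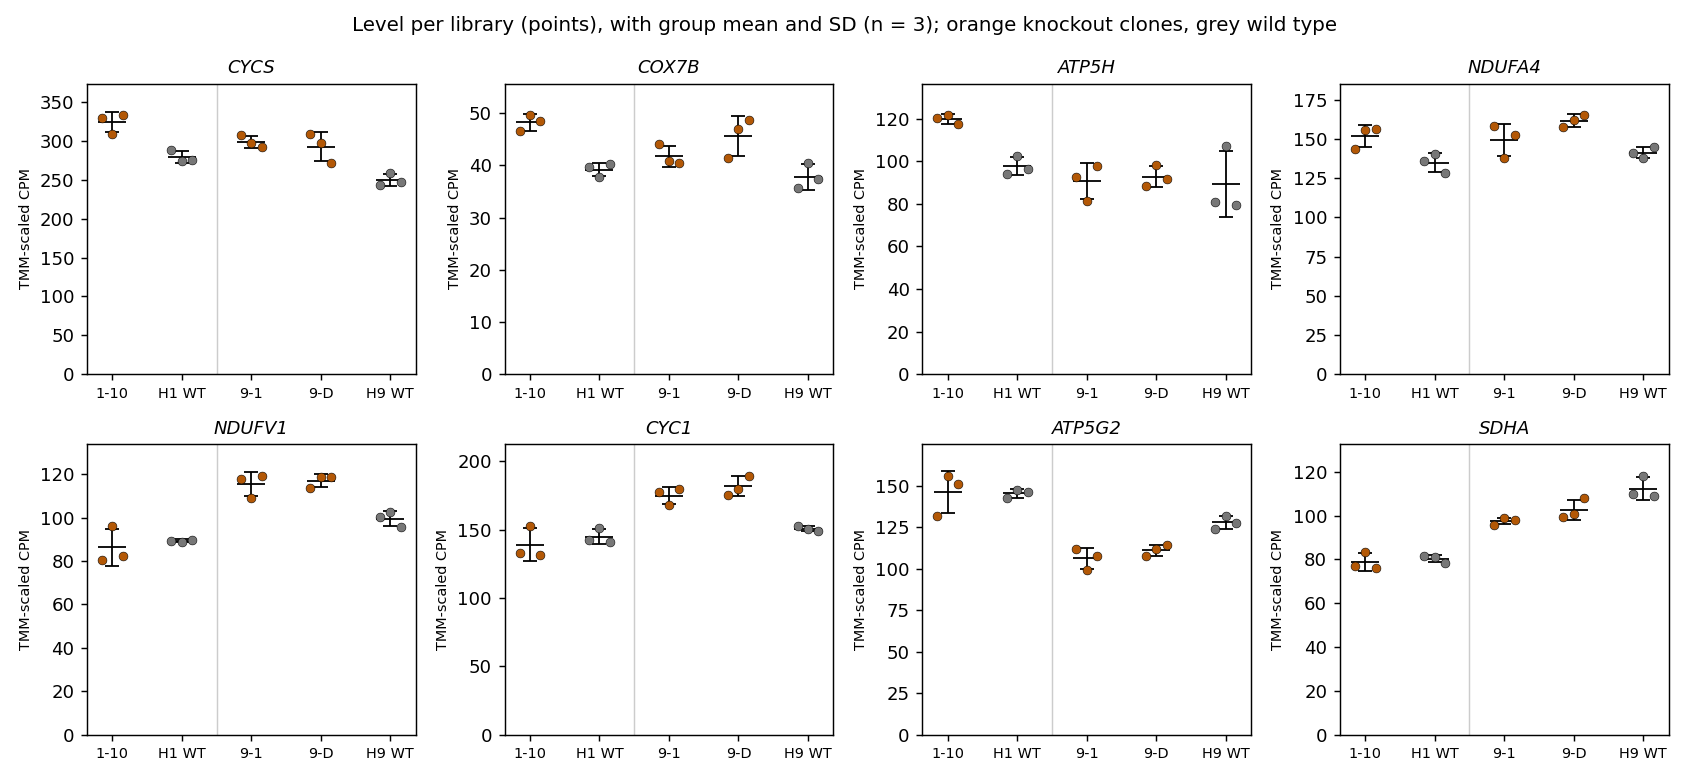
TMM-scaled CPM of CYCS, COX7B, ATP5H, NDUFA4, NDUFV1, CYC1, ATP5G2 and SDHA in the 15 replicated libraries, with clones left of the wild type of their line, 1 point per library and the mean with SD (n = 3) as a bar. CYCS is higher in every clone, CYC1 and NDUFV1 in H9 clones, ATP5H in clone 1-10, and ATP5G2 is lower in H9 clones.

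The isoforms known from other tissues stayed near the floor. COX4I2, the form of subunit 4 that low oxygen induces in other cells, had 0 to 1 counts a library, and COX6A2 (heart and skeletal muscle) had 0 to 3. COX7B2 (testis) had 0 to 1 counts, COX8C (testis) had 0, and NDUFA4L2, the paralogue of NDUFA4 that low oxygen induces, had 0 to 6. These genes failed the filter and stand in no test, as do ATP5E (0 to 4 counts), the copy ATP5L2 (0 to 2) and the read-throughs ATP5J2-PTCD1 and NDUFC2-KCTD14 (0 each). With the limit for a count of 0 set at 3 counts, such a gene could have reached 0.143 CPM where depth was greatest and 0.31 CPM where it was least. The value of ATP5E, the epsilon subunit that every ATP synthase holds, is thus a limit of these tables and not a level to read. COX7A1, the heart and skeletal muscle form of subunit 7A, passed in H9 only and was not called there. COX6B2, the testis form of subunit 6B, stood at 0.254, 0.808 and 0.839 CPM in clone 1-10 against 0.559, 0.646 and 1.65 CPM in H1 wild type, and at 0.967, 0.812 and 1.21 CPM in 9-1 and 0.905, 2.05 and 1.70 CPM in 9-D against 1.81, 1.45 and 1.67 CPM in H9 wild type. The 9-1 libraries lay below wild type, and the test was not passed (-0.75, edgeR adjusted p = 0.0844).

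Complex V, the ATP synthase, joins a catalytic F1 head to a membrane part by a central and a peripheral stalk. In clone 1-10, 1 of 16 tested genes was higher (median 0.10), in 9-1, 1 was lower (median 0.02), and in 9-D, 2 were higher and 1 lower (median 0.06). The shares called were 6.25% in clone 1-10, 6.25% in 9-1 and 18.8% in 9-D. Over all tested genes, 12.3%, 26.3% and 23.5% were called, both directions together. In clone 1-10, 6.25% of complex V genes were higher and 0 lower, against 5.01% and 7.25% of all tested genes. In 9-1, 0 were higher and 6.25% lower, against 12.8% and 13.5%. In 9-D, 12.5% were higher and 6.25% lower, against 11.5% and 12.0%. Of the 16 genes in clone 1-10, 15 lay above 0. By edgeR, 7 were higher there at an unadjusted p under 0.05, where 12.3% of all genes were. With total-count scaling the 9-1 median of complex V was -0.02. ATP5H, the d subunit of the peripheral stalk, stood at 120.1, 122 and 117 CPM in clone 1-10, against 94.0, 102 and 96.5 CPM in H1 wild type. All clone 1-10 libraries lay above wild type (log2 fold change 0.29, SE 0.058, edgeR adjusted p = 0.00061; kept in all 13 alternatives). In H9 the wild-type libraries spread from 79.4 to 107 CPM and enclosed all 9-1 and 9-D libraries, at 92.4, 81.5 and 97.9 CPM and 88.5, 98.2 and 91.8 CPM. In 9-D, ATP5J2, the f subunit, was higher by 0.24 (edgeR adjusted p = 0.013; lost without H9 wild-type replicate 2, 0.0919, or 9-D replicate 3, 0.0524). ATP5B, the catalytic beta subunit, was higher there by 0.16 (edgeR adjusted p = 0.0285; lost without H9 wild-type replicate 1, 0.145, or 9-D replicate 3, 0.056). ATP5A1, the alpha subunit beside it, had log2 fold changes of 0.01, 0.04 and 0.07 in 1-10, 9-1 and 9-D and passed in none.

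The c-ring, the rotor in the membrane, is made of 1 mature peptide encoded by 3 genes, ATP5G1, ATP5G2 and ATP5G3, which differ in their import sequences. ATP5G2 was the gene called lower in both H9 clones. It stood at 112, 99.5 and 108 CPM in 9-1 and 107, 112 and 114 CPM in 9-D, against 124, 132 and 128 CPM in H9 wild type. No H9 clone library reached a wild-type one, and the log2 fold changes were -0.27 in 9-1 (SE 0.060, edgeR adjusted p = 0.000769; kept in all 18 alternatives) and -0.20 in 9-D (SE 0.060, adjusted p = 0.0108; lost without 9-D replicate 1, 0.0637). In H1 the groups overlapped, at 132, 156 and 151 CPM in clone 1-10 against 143, 147 and 146 CPM in wild type. ATP5G1 stood at 58.3, 51.6 and 57.6 CPM in 9-1 and 56.2, 55.5 and 60.1 CPM in 9-D, against 54.1, 54.2 and 53.5 CPM in H9 wild type (log2 fold changes 0.04 and 0.09, neither called). ATP5G3 stood at 187, 171 and 181 CPM in 9-1 and 190.3, 188 and 189 CPM in 9-D, against 173, 188 and 174 CPM (0.01 and 0.08, neither called). The difference between ATP5G2 and the other c-ring genes was not tested.

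The promoters of ATP5G2 and ATP5G1 are shown as a gene that fell in H9 clones and one for the same peptide that was not called. They are RefSeq sequences (GRCh38.p14) of the same window, 5′ to 3′ along the gene: chr12:53676034-53676333 on the minus strand for ATP5G2 (now ATP5MC2) and chr17:48892537-48892836 on the plus strand for ATP5G1 (now ATP5MC1). Capitals mark, in ATP5G2, the NRF1 letters read on the reverse strand at -41 from the start and, in ATP5G1, CCAAT at -181, -78, -48 and -22.
ATP5G2: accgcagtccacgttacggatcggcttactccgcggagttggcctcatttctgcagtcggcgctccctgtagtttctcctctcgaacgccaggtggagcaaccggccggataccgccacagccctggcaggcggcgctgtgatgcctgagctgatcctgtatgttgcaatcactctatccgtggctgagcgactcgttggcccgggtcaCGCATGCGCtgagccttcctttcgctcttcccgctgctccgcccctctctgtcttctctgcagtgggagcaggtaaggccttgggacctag
ATP5G1: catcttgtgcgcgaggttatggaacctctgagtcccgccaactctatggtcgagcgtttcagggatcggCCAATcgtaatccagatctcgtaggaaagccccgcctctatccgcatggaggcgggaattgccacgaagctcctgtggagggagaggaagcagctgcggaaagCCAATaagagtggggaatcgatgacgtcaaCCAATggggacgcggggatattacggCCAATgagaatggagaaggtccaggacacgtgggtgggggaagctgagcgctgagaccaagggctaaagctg
Neither window holds the ZNF263 repeat letters. That says nothing of binding elsewhere or to other letters.

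Between the H9 clones, none of the 81 genes differed at an adjusted p under 0.05, by edgeR or by DESeq2, where 0.305% of all genes were called by edgeR and 0.273% by DESeq2. At an unadjusted p under 0.05, edgeR gave 17 of the 81 genes and 6.61% of all genes, in either direction. The differences leaned one way: 73 of 81 genes were higher in 9-D than in 9-1, with a median of 0.09 on the log2 scale. Without 9-1 replicate 2 the median came to 0.06 and 66 of 81 genes lay above 0. In complex IV, 13 of 14 genes lay above 0 (median 0.16), and 7 of 14 had an unadjusted p under 0.05. COX7A2 had the smallest p, with a log2 difference of 0.23 (unadjusted p = 0.000996, edgeR adjusted p = 0.193). COX6C (0.24, adjusted p = 0.399) and COX7C (0.17, adjusted p = 0.465) followed by the edgeR test. The mitochondrial ribosomal RNAs, encoded by mitochondrial DNA and no part of the 90 genes, were higher in 9-D than in 9-1: RNR1 by 0.35 (edgeR adjusted p = 0.0122) and RNR2 by 0.25 (adjusted p = 0.0151). The RNR1 call was lost without 9-1 replicate 1 (adjusted p = 0.176) or 9-D replicate 2 (0.0509) or 3 (0.233), and the RNR2 call without 9-1 replicate 1 (0.112) or 3 (0.169) or 9-D replicate 1 (0.062).

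The knockout effect in H9 (both clones together) was set against that in H1 over the 15 libraries, where 9.21% of 15802 genes differed. Of 81 genes, 2 had a higher effect in H9 and 2 a lower one, and the median difference was -0.05. CYC1 differed by 0.30 (SE 0.077, edgeR adjusted p = 0.00884), and this call was kept in all 22 alternatives. NDUFV1 differed by 0.27 (SE 0.083, edgeR adjusted p = 0.0323), kept in 13 of 22. Both were higher in the H9 clones and near 0 in clone 1-10. The lower ones were subunits of the membrane part of complex V, ATP5G2 by -0.24 (SE 0.079, edgeR adjusted p = 0.0419; kept in 11 of 22) and the g subunit ATP5L by -0.27 (SE 0.086, adjusted p = 0.0371; kept in 13 of 22). ATP5L stood at 111, 112 and 115 CPM in clone 1-10 against 101, 103 and 97.4 CPM in H1 wild type, and at 89.1, 78.1 and 83.9 CPM in 9-1 and 86.6, 101 and 90.2 CPM in 9-D against 88.9, 104 and 90.4 CPM in H9 wild type. It lay above wild type in H1 and overlapped it in H9, and no clone's own test called it (0.17, -0.18 and -0.03; edgeR adjusted p = 0.053, 0.0556 and 0.794 in 1-10, 9-1 and 9-D). These line differences rest on few libraries: each of the 15 was left out in turn, and NDUFV1 was lost in 9 such fits (adjusted p up to 0.147), ATP5L in 9 (up to 0.179) and ATP5G2 in 11 (up to 0.156). The libraries concerned included H1 wild-type replicates 1 and 3 and clone 1-10 replicate 3 for all 3 genes, clone 1-10 replicate 1 with the highest p for NDUFV1, clone 1-10 replicate 2 with the highest p for ATP5G2 and H9 wild-type replicate 2 with the highest p for ATP5L. No label states if both lines were processed at the same time. A shift common to all libraries of a line cancels in this contrast. A batch that altered the knockout effect itself cannot be told apart from the line. The H1 effect rests on clone 1-10 alone, so a difference between lines cannot be told apart from a property of that clone.

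**Figure D4:**
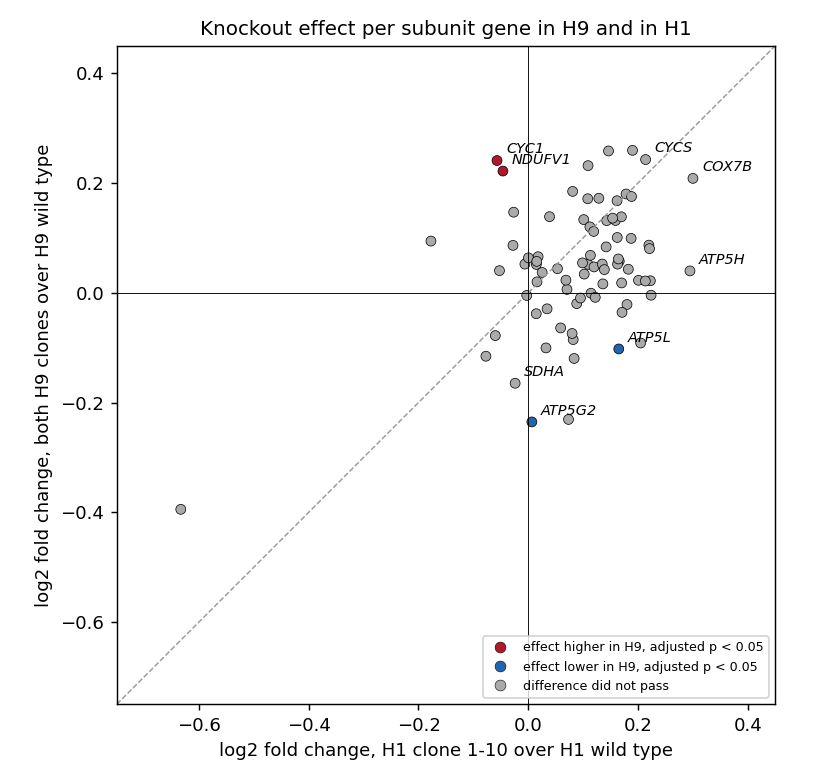
Log2 fold change of each tested gene in H1 clone 1-10 (x) against that of both H9 clones together (y), with the 4 genes whose effects differed between lines in red (higher in H9) or blue (lower) and the line of equal effects dashed. CYC1 and NDUFV1 lie above the diagonal and ATP5G2 and ATP5L below it.

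In the single H1 libraries, with 1 library a group and no test, 0 of 79 genes passed 1.5-fold in clone 1-10 or in clone 1-5 against wild type, where 3.42% and 3.49% of 13916 genes did. The median log2 ratio was 0.07 in clone 1-10 and 0.09 in the heterozygous clone 1-5, and 59 and 61 of the 79 genes lay above 0. NDUFS6 stood at 137 CPM in clone 1-10 and 146 CPM in clone 1-5, against 112 CPM in wild type. SDHB stood at 51.5 and 52.1 CPM in these clones, against 44.4 CPM in wild type.

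The authors' deposited table for clone 1-10, made with DESeq2, held 15 of these genes as higher and 0 as lower at its adjusted p under 0.05. It held an adjusted p for 80 of these genes. Of all 15060 genes with an adjusted p there, 808 were higher and 806 lower. The 15 included all 13 edgeR calls, and ATP5B and ATP5L besides. In the authors' deposited table for both H9 clones over wild type, 15 of 81 were higher and 2 lower. Of all 16799 genes with an adjusted p there, 2207 were higher and 2048 lower. The edgeR fit of the same 6 and 3 libraries gave 14 of 81 higher and 2 lower, where 14.4% and 15.3% of all tested genes were. NDUFA4 was the added gene in the authors' deposited table.

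Genes that assemble, feed or regulate the chain were read from 5 lists (the plot of pathway genes). Of 49 tested assembly factors, 4 were higher in clone 1-10, and 5 were higher and 2 lower in each H9 clone. The shares called were 8.16% in clone 1-10 and 14.3% in each H9 clone. Over all tested genes, 12.3% were called in clone 1-10, 26.3% in 9-1 and 23.5% in 9-D, both directions together. By direction, 8.16% of the list were higher and 0 lower in clone 1-10, against 5.01% and 7.25% of all tested genes. In each H9 clone, 10.2% were higher and 4.08% lower. All tested genes had 12.8% higher and 13.5% lower in 9-1, and 11.5% and 12.0% in 9-D. NDUFAF7, a methyltransferase that modifies complex I during assembly, was higher by 0.58 in 9-1 (edgeR adjusted p = 1.71e-08) and 0.50 in 9-D (adjusted p = 3.07e-07), calls kept whichever library was left out. SDHAF4, an assembly factor of complex II, was lower by -0.67 in 9-1 (edgeR adjusted p = 0.00238) and -0.54 in 9-D (adjusted p = 0.0141; lost without H9 wild-type replicate 1, 0.0872, or 9-D replicate 2, 0.0593). COX17, a copper chaperone of complex IV, was higher in clone 1-10 by 0.34 (edgeR adjusted p = 0.0288), a call lost without H1 wild-type replicate 2 or 3 or clone 1-10 replicate 2 or 3 (adjusted p from 0.0784 to 0.114). Of 18 citric acid cycle and pyruvate dehydrogenase genes, 1 was higher and 1 lower in clone 1-10, and 4 were higher and 2 lower in each H9 clone. The shares called were 11.1% in clone 1-10 (5.56% higher and 5.56% lower) and 33.3% in each H9 clone (22.2% and 11.1%). These are to be read beside the same shares of all tested genes. IDH2, the mitochondrial NADP-dependent isocitrate dehydrogenase, was lower in all 3 clones, by -0.25 in 1-10 (edgeR adjusted p = 0.0128), -0.44 in 9-1 (adjusted p = 1.98e-05) and -0.50 in 9-D (adjusted p = 2.64e-06). In clone 1-10 this was lost without H1 wild-type replicate 3 (0.0984) or clone 1-10 replicate 1 (0.0778) or 3 (0.065).

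Of 23 regulators and products of mitochondrial gene expression, 4 were higher in clone 1-10, 6 higher and 1 lower in 9-1, and 5 higher and 1 lower in 9-D. The shares called were 17.4% in clone 1-10, 30.4% in 9-1 and 26.1% in 9-D. Over all tested genes, these shares were 12.3%, 26.3% and 23.5%. By direction, 17.4%, 26.1% and 21.7% of the list were higher in 1-10, 9-1 and 9-D, against 5.01%, 12.8% and 11.5% of all tested genes. The shares lower were 0, 4.35% and 4.35%, against 7.25%, 13.5% and 12.0%. RNR1 was higher by 0.62 in clone 1-10 (edgeR adjusted p = 3.02e-12) and RNR2 by 0.23 (adjusted p = 0.00176), kept whichever library was left out. Among 15 tested carriers and other donors of electrons, none was called in clone 1-10 (1 had an unadjusted p under 0.05 by edgeR), 2 were higher and 1 lower in 9-1, and 1 was higher and 1 lower in 9-D. These were 13.3% higher and 6.67% lower in 9-1, against 12.8% and 13.5% of all tested genes. In 9-D they were 6.67% each way, against 11.5% and 12.0%, and in clone 1-10, 12.3% of all tested genes were called. PRODH, proline dehydrogenase, was higher by 0.86 in 9-1 (edgeR adjusted p = 4.72e-13) and 0.68 in 9-D (adjusted p = 2.64e-10). GPD2, the mitochondrial glycerol phosphate dehydrogenase, was lower by -0.27 and -0.26 (adjusted p = 0.00162 and 0.00255, edgeR). All 4 of these calls were kept whichever library was left out.

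Of 14 genes that low oxygen induces in other cells, 8 had a higher effect in H9 than in H1 by the test of the difference (edgeR, adjusted p under 0.05). Over all tested genes, 5.21% had a higher effect in H9. In clone 1-10, 8 of 13 low-oxygen genes were lower, with a median of -0.43, where 7.25% of all tested genes were lower. In 9-1, 3 of 12 were higher and 3 lower (median 0.10), and in 9-D, 4 were higher and 1 lower (median 0.13). Over all tested genes, 12.8% were higher and 13.5% lower in 9-1, and 11.5% and 12.0% in 9-D. BNIP3, a mitophagy receptor, stood at 22.5, 20.5 and 21.9 CPM in clone 1-10, against 56.0, 41.5 and 89.7 CPM in H1 wild type. DDIT4, an inhibitor of mTOR signalling, stood at 26.8, 27.1 and 29.5 CPM, against 65.5, 63.0 and 113 CPM. H1 wild-type replicate 3 was the highest library for both. BNIP3 was lower by -1.53 (edgeR adjusted p = 6.29e-09), DDIT4 by -1.54 (adjusted p = 2.16e-10), and PDK1, the kinase that switches off pyruvate dehydrogenase, by -0.70 (adjusted p = 2.1e-06), and these calls were kept whichever library was left out. The same H1 wild-type replicate 3 carried the lowest median of the oxidative phosphorylation genes in that line. Whether the low-oxygen genes and the oxidative phosphorylation genes are linked was not tested.

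**Figure D5:**
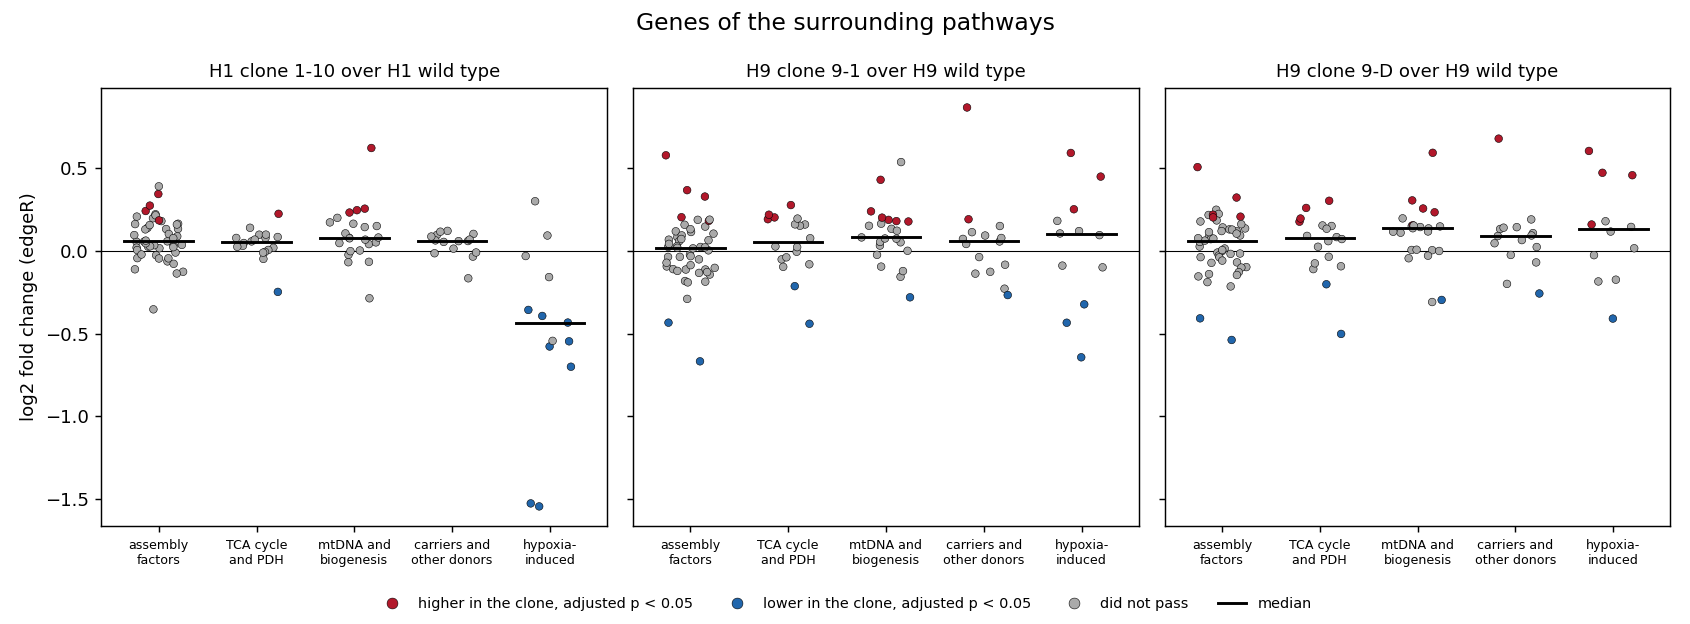
Log2 fold change of the tested genes of the 5 pathway lists against the wild type of their line in clones 1-10, 9-1 and 9-D, 1 point per gene, the median as a bar and called genes in red (higher) or blue (lower). The low-oxygen list lies at a median of -0.43 in clone 1-10, 0.10 in 9-1 and 0.13 in 9-D, and the medians of the other lists lie between 0.02 and 0.13.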

How the data were processed

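Polyadenylated RNA was extracted with TRIzol and made into libraries with the NEBNext Ultra II kit, per the labels. The authors deposited whole read counts per gene symbol for 18 libraries. Per the submitters' processing notes STAR, featureCounts, DESeq2 and hg19 were used, with the versions, options and strand setting not given in the sources used here. The authors' deposited comparison tables hold log2 fold changes of knockout over wild type and adjusted p-values, per the file headers.

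The counts were tested with edgeR 4.0.16 (R 4.3.3): TMM scaling, filterByExpr, quasi-likelihood F test and Benjamini-Hochberg adjustment over all genes tested, with calls at 0.05. H1 was fitted with 3 and 3 libraries, H9 as 3 groups of 3, and the difference between lines over 15 libraries. Log2 fold changes are knockout over wild type, 9-D over 9-1, or H9 effect minus H1 effect, and the SE is the absolute log2 fold change over the square root of F. Precision is limited by 3 libraries a group and 9.66 to 21 M counts a library. A limit of 3 counts covers counting error only. The single libraries were compared as log2 ratios with 0.5 CPM added, among genes with at least 10 counts, at 1.5-fold. The deposited count columns carry older symbols, and 89 of the 90 matched RefSeq GRCh38.p14, 69 by symbol and 20 by synonym (NDUFA4 did not). Counts rest on hg19, so GRCh38.p14 served for names and promoters only. Transcript lengths came from GENCODE.

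The genes named are ZNF263, fixed isoforms and core subunits, and by value the 5 called genes with the largest change per clone and direction, those called in all clones or differing between lines, and up to 3 genes per pathway list. Further called genes were named after their values were seen. The genes and lists were chosen with earlier results of these data known. Alternatives were DESeq2 1.42.0, RLE, upper-quartile and total-count scaling, other filters on low counts, other sample sets, a replicate block and leaving out each library. The fits were tested on simulated data with changes larger than those called here for the oxidative phosphorylation genes. That test therefore does not show how well changes as small as these are found. Antisense partners could share reads where strand was not used in counting.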

Additional observations from a re-analysis of the deposited data

Results flagged for a closer look

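These results differed between the lines by the test of the difference itself (edgeR over 15 libraries, effect in both H9 clones minus effect in H1 clone 1-10, log2). Among the oxidative phosphorylation genes, CYC1 (cytochrome c1) differed by 0.30 and NDUFV1 (the NADH-binding subunit) by 0.27. The c-ring gene ATP5G2 differed by -0.24 and ATP5L (the g subunit) by -0.27.

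Among the assembly factors, NDUFAF7 differed by 0.45 and CMC1, a factor of complex IV, by -0.63. CMC1 was 0.21 in clone 1-10 and -0.43 and -0.41 in 9-1 and 9-D, and its line difference was lost without H9 wild-type replicate 1 (edgeR adjusted p = 0.0574). Of the genes of mitochondrial DNA expression, RNR1 differed by -0.57 and POLG2, the accessory subunit of the mitochondrial DNA polymerase, by -0.37. The POLG2 difference was lost in 9 of 15 fits that left out a library (edgeR adjusted p up to 0.168, without clone 1-10 replicate 1). PRODH differed by 0.71.

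Of the low-oxygen genes, DDIT4 differed by 1.66, BNIP3 by 1.27 and PDK1 by 0.91. BNIP3 was not raised in H9. It stood at 21.9, 23.3 and 21.8 CPM in 9-1 and 23.9, 27.6 and 23.2 CPM in 9-D, against 29.6, 29.2 and 25.4 CPM in H9 wild type. PDK1 stood at 57.8, 54.5 and 53.7 CPM in 9-1 and 55.8, 52.1 and 49.7 CPM in 9-D, against 47.1, 48.2 and 44.1 CPM in H9 wild type, and at 31.1, 29.9 and 34.4 CPM in clone 1-10, against 50.7, 42.5 and 60.9 CPM in H1 wild type. The PDK1 groups did not overlap in either line. It was higher in 9-1 (0.25, edgeR adjusted p = 0.00612, lost without H9 wild-type replicate 3, 0.0574) and did not pass in 9-D (0.18, adjusted p = 0.0598).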

How the results depend on the processing

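Of 6071 single-gene values under alternatives, 5686 stayed on the same side of the threshold, 310 lost and 75 gained a call, and no call was reversed. The 6071 include named genes in comparisons where they had no call, so 310 of 6071 is not the share of calls lost. Among called oxidative phosphorylation genes, COX6A1 and NDUFS6 kept theirs in 6 of 13 alternatives in clone 1-10. COX5A in 9-1 and NDUFV3 in 9-D kept theirs in 9 of 18, and CYCS kept its call in every one for each clone. The direction of values without a call was not compared, and it did change for some genes. In 9-1, 39 of 81 genes lay above 0, and 26 did with total-count scaling. Reported counts stand in parentheses. In clone 1-10 the count of higher genes (13) was 5 with upper-quartile and 4 with total-count scaling, and that of lower genes (0) was 1 in each. For 9-1, 14 were higher with both clones together (6), and 6 were lower with upper-quartile or total-count scaling and 5 with clone and wild type alone (3). For 9-D, 11 and 6 were higher with these scalings (19), and 2 were lower with total counts or both clones together (1). Without a filter on low counts, 4 had a lower effect in H9 than in H1 (2). In the single clone 1-5 library, 1 gene (NDUFS6) passed the smaller of the alternative fold limits (0 at 1.5-fold). These scalings moved the median of all genes by -0.05 at the largest (9-D, total counts). With upper-quartile and total-count scaling, higher calls over all genes fell to 478 and 436 in clone 1-10 (747). They fell to 1636 and 1449 in 9-1 (1965) and to 1503 and 1214 in 9-D (1770), while lower calls rose in each clone.

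Leaving out 1 library gave 3 to 17 higher and 0 to 1 lower in clone 1-10, 3 to 6 and 1 to 5 in 9-1, and 7 to 21 and 0 to 1 in 9-D. The lower call in clone 1-10 came without its replicate 2, and that in 9-D was lost without 9-D replicate 1. The line difference gave 1 to 3 higher and 0 to 5 lower. Higher calls over all tested genes ran from 284 to 903 in clone 1-10 in such fits (747 with all libraries). They ran from 1503 to 2190 in 9-1 (1965) and from 1369 to 1830 in 9-D (1770).

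Same-numbered libraries correlated by 0.159, 0.263 and 0.0444 (1-10 and wild type), 0.143, 0.116 and 0.0449 (9-1) and -0.106, 0.162 and 0.0351 (9-D), not all over 0.1, so the numbers were not taken as pairs; not every library correlated best with its own number. With a replicate block, 29 were higher and 1 lower in clone 1-10, 5 lower in 9-1, and 4 had a lower effect in H9. The calls over all genes rose as well. In clone 1-10, 1473 genes were higher and 1453 lower with the block, against 747 and 1080 without it. In 9-1, 2206 were lower, against 2088, and 772 had a lower effect in H9, against 632. The cause of these shifts was not tested.

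With 3 libraries a group, changes of this size pass or fail with single libraries. Genes at a few counts, ATP5E among them, cannot be read.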

Other observations

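Several genes around the chain changed in the H9 clones without a call in clone 1-10. COX10, which makes the heme of complex IV, was higher in 9-1 (0.37, edgeR adjusted p = 0.000942), with 0.22 in 9-D (adjusted p = 0.0501) and 0.22 in clone 1-10 (adjusted p = 0.0815). TACO1, a translational activator of a mitochondrially encoded complex IV subunit, was higher in 9-1 (0.33, edgeR adjusted p = 0.0029) and in 9-D (0.32, adjusted p = 0.00389; lost without H9 wild-type replicate 1, 0.0503). PDHB, a subunit of pyruvate dehydrogenase, was higher in 9-1 (0.20, edgeR adjusted p = 0.00852; lost without H9 wild-type replicate 1, 0.0502) and 9-D (0.26, adjusted p = 0.00089). None of these 3 genes was among those whose effects differed between lines.

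Of the 12 low-oxygen genes tested in H9, 3 were higher and 3 lower in 9-1, and 4 were higher and 1 lower in 9-D. P4HA1 stood at 33.8, 34.6 and 36.9 CPM in 9-1 and 43.2, 43.8 and 38.2 CPM in 9-D. Each lay below H9 wild type, at 46.4, 48.8 and 47.1 CPM. VEGFA, an angiogenic growth factor, was higher by 0.45 in 9-1 (edgeR adjusted p = 2.21e-06) and 0.46 in 9-D (adjusted p = 1.78e-06). EGLN3, a prolyl hydroxylase that acts on HIF, was higher by 0.59 (edgeR adjusted p = 4.06e-07) and 0.47 (adjusted p = 2.62e-05). ADM, the peptide hormone adrenomedullin, was lower in each clone, by -0.58 in 1-10 (edgeR adjusted p = 9.62e-08), -0.64 in 9-1 (adjusted p = 9.09e-10) and -0.41 in 9-D (adjusted p = 7.42e-06). The calls for VEGFA, EGLN3 and ADM were kept whichever library was left out.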
